A study of Homo sapiens with 20 samples.

Results

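Aldehyde dehydrogenases are enzymes that oxidize aldehydes to carboxylic acids with NAD or NADP as the cofactor. Their substrates come from alcohol, retinol, membrane lipids, amino acids and folate, so the family serves both detoxification and ordinary metabolism. The transcripts of 10 members, ALDH1A1, ALDH1B1, ALDH1L2, ALDH2, ALDH3A2, ALDH4A1, ALDH7A1, ALDH9A1, ALDH16A1 and ALDH18A1, were followed in B-lineage cell lines with evolved resistance to proteasome inhibitors and in the lines they came from. These are 10 of the 19 ALDH genes among the 18305 genes with RNA-seq values. The family was selected on measured values, because ALDH1A1 was one of the largest rises in bortezomib-resistant RPMI cells. Values of that comparison are therefore given as a description, with no test.

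ALDH1A1 makes retinoic acid from retinaldehyde in the cytosol, and high aldehyde dehydrogenase activity is widely used to mark stem-like cells in normal and malignant blood. ALDH2 and ALDH1B1 are mitochondrial enzymes for acetaldehyde and other small aldehydes, and ALDH3A2 removes fatty aldehydes at the endoplasmic reticulum. The remaining members sit inside defined pathways, namely proline synthesis and breakdown (ALDH18A1, ALDH4A1), lysine breakdown (ALDH7A1), carnitine synthesis (ALDH9A1) and mitochondrial folate metabolism (ALDH1L2), except ALDH16A1, whose mammalian form is thought to lack catalytic activity.

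RNA-seq covered 20 libraries in 10 groups of 2 replicates: AMO1, L363, RPMI and ARH77, each as parental cells (WT) and as cells resistant to bortezomib (BtzR), and AMO1 and L363 also as cells resistant to carfilzomib (CfzR). AMO1, L363 and RPMI are multiple myeloma lines, and ARH77 is a B-lymphoblastoid line. All were cultured in RPMI-1640 with fetal bovine serum. Resistant cells were kept in 90 nM bortezomib or carfilzomib and parental cells were not, so resistance and the presence of the drug cannot be told apart. The labels do not say whether a resistant line is a clone. Expression is given as FPKM, fragments mapped to a gene relative to its transcript length and to all mapped fragments, which is a level per length and can be compared between genes. In bulk RNA, more cells with a transcript and more transcript per cell cannot be told apart.

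The FPKM of a library summed to 457317 to 494850, and 10455 to 11023 genes reached 1 FPKM. Replicates correlated at a Pearson r of 0.991, in ARH77 WT, to 0.999 over all genes. The libraries labelled AMO1 CfzR went against their label, with an r of 0.991 to 0.994 with the L363 libraries and of 0.924 to 0.927 with the other AMO1 libraries. They are set below against both AMO1 WT and L363 WT, and leaving them out changed no count of members in the other comparisons. A list of 8 plasma cell markers summed to between 852 and 4175 FPKM in the myeloma lines and to between 299 and 348 FPKM in ARH77. A list of 8 B cell markers summed to 434 to 548 FPKM in ARH77, where 7 of 8 reached 1 FPKM, and to no more than 11.3 FPKM in the myeloma lines outside AMO1 BtzR. Lists of stromal, T cell, myeloid and erythroid markers summed to no more than 1.79, 12.82, 9.23 and 2.36 FPKM.

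Differences are differences of mean log2(FPKM + 1), resistant minus parental, with their standard error (SE). A gene is said to have changed when limma's adjusted p, over the 13089 genes tested, was under 0.05, and is called at least 2-fold when its difference was also 1 or more in size. All 10 members passed the filter of a group mean of 1 FPKM in at least 1 group, but ALDH1A1, ALDH2 and ALDH7A1 passed it only through the groups where they are high. For these members, p-values of comparisons that include such a group are not independent of the filter. With 2 libraries against 2, a two-sided exact permutation test cannot give a p below 0.33, so every p comes from limma, which pools the spread over the 10 groups.

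The members with the widest range of levels were ALDH1A1 and ALDH7A1, each near 0 FPKM in some lines and well above it in others. The 250 bases before the start of these genes are shown because the difference between groups is close to presence against absence of the transcript. They are RefSeq sequence of GRCh38.p14, on the gene's strand, and the genome build of the FPKM values is not named. Capitals mark the CCAAT motif.
ALDH1A1: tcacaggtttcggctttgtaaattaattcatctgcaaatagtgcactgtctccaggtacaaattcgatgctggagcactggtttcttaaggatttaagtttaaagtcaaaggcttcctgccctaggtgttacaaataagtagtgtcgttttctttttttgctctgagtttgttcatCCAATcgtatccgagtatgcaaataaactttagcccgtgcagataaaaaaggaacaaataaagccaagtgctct
ALDH7A1: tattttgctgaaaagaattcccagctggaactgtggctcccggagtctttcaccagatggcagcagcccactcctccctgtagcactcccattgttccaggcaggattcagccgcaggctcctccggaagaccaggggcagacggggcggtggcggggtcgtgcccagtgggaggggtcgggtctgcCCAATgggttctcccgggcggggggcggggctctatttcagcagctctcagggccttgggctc
The ALDH1A1 sequence lies at chr9:72953054-72953303 on the minus strand, and the ALDH7A1 sequence at chr5:126595220-126595469 on the minus strand. CCAAT stood at bases -74 to -70 of ALDH1A1 and -63 to -59 of ALDH7A1, where -1 is the base before the start, and at -26 to -22 of ALDH1B1 on the other strand. The motif was searched on both strands and was present in 34.6% of all 35116 RefSeq windows of the same 300 bases (250 before and 50 after the start). Windows were at hand for 7 of the 10 members. None of these 7 held TATAAA (in 11.5% of all windows), TGATGNAA, the core of a C/EBP-ATF response element (3.62%), or TGACNNNGC, the core of an antioxidant response element (13.3%). The ALDH1A1 window had 7 CG dinucleotides, the ALDH7A1 window 17 and the ALDH18A1 window 31, against a median of 14 over all windows. These matches are a description of the letters and not evidence of binding.

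**Figure D1:**
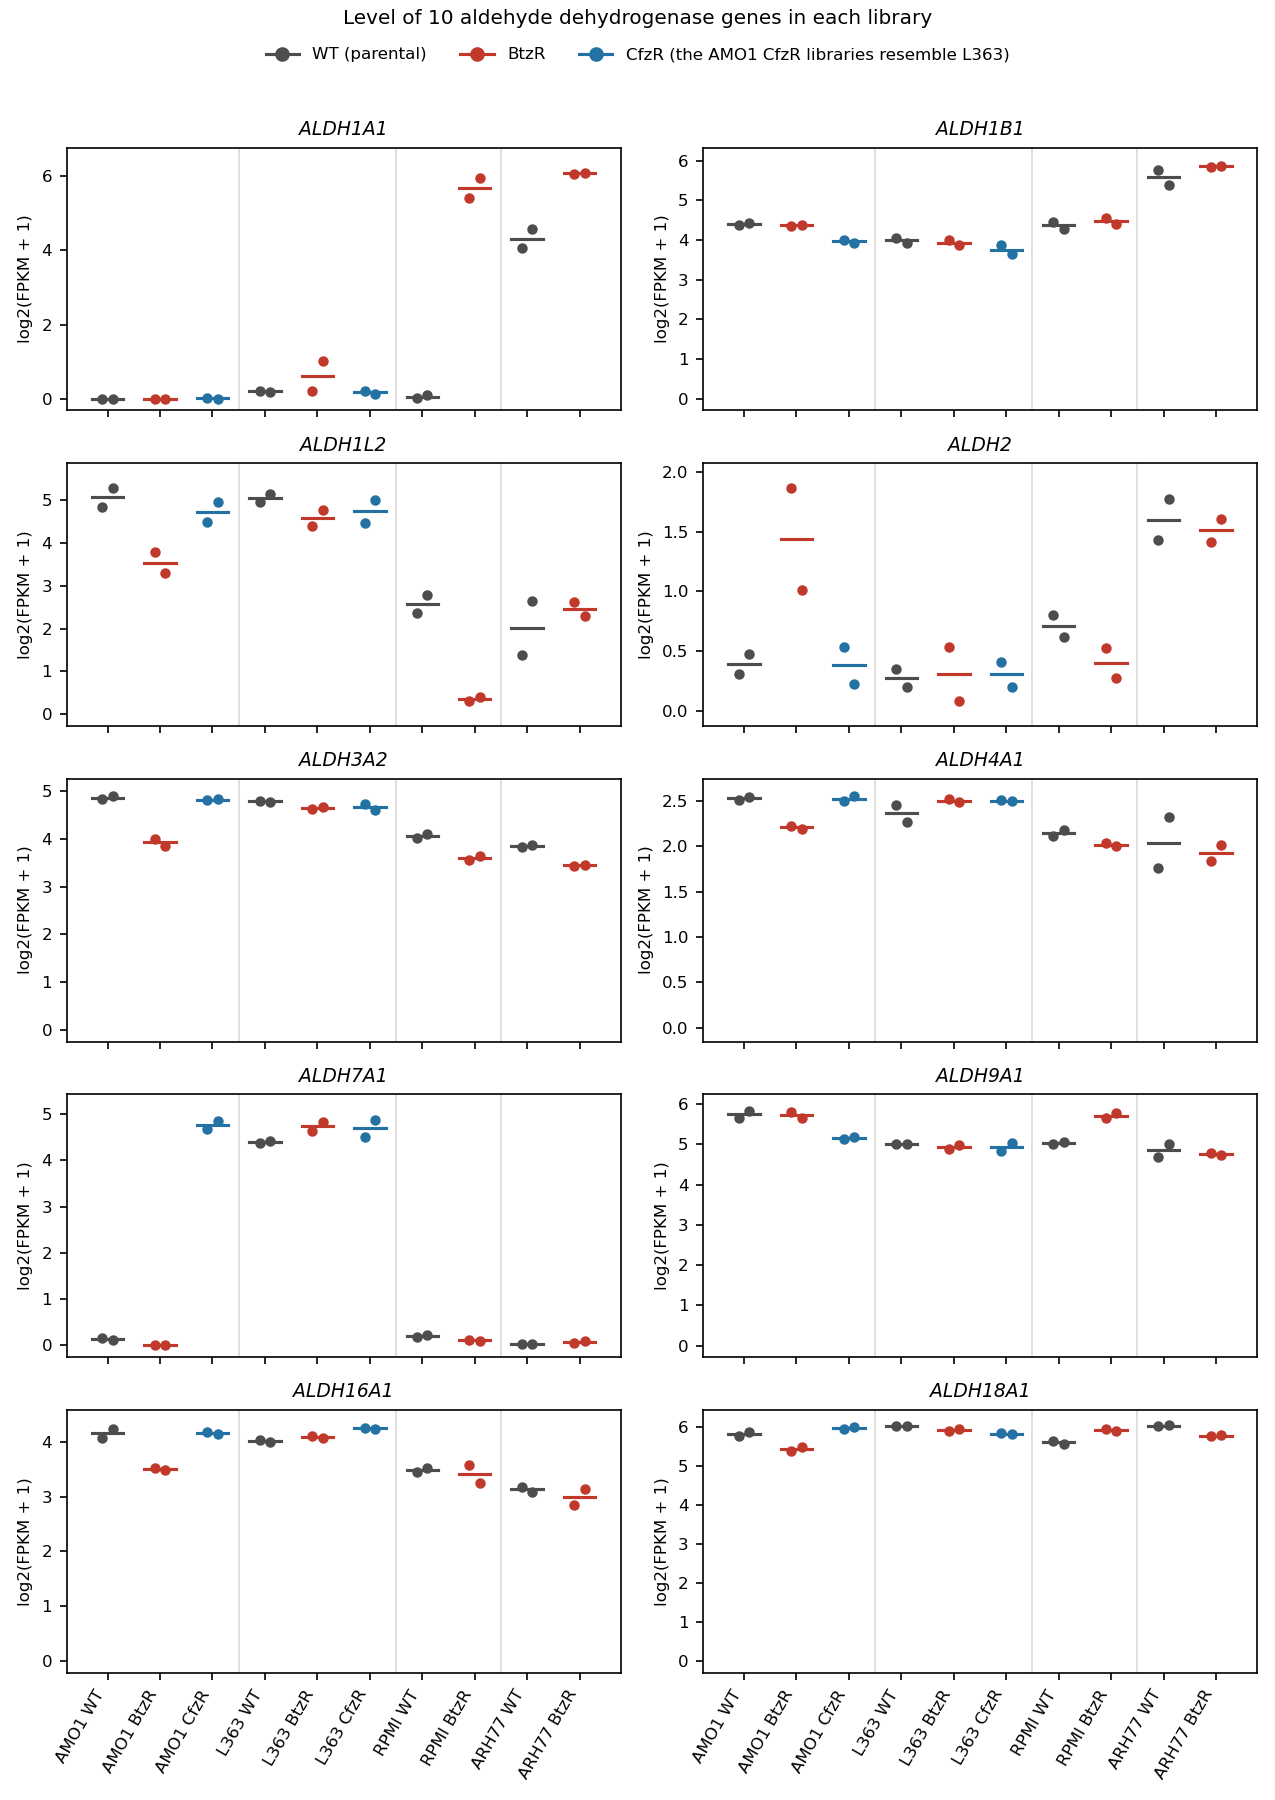
Level of each of the 10 aldehyde dehydrogenase genes, in log2(FPKM + 1), by group. Each point is a library, each bar is the mean of the 2 libraries, and the vertical scale differs between genes. ALDH1A1 stands high in both ARH77 groups and in RPMI BtzR, ALDH7A1 in the 3 L363 groups and in the libraries labelled AMO1 CfzR, and ALDH18A1 stays between 41.19 and 65.17 FPKM throughout.

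ALDH1A1, the retinaldehyde dehydrogenase, was at 15.59 and 22.97 FPKM in the ARH77 WT libraries and at 65.64 and 66.65 FPKM in ARH77 BtzR. Both resistant libraries lay above both parental ones. ALDH1A1 rose by 1.75 (SE 0.22, adjusted p = 6.81e-05, limma), with means of 66.1 ± 0.714 against 19.3 ± 5.22 FPKM (SD, n = 2), a ratio of 3.43. Leaving out 1 library at a time gave 1.49 to 2.02. The adjusted p was 0.123 with a pseudocount of 0.01 FPKM and 0.122 in a fit of the 4 ARH77 libraries alone, in which no gene passed. B cell markers other than CIITA, a list of 7, summed to 368 and 401 FPKM in ARH77 WT and to 470 and 483 FPKM in ARH77 BtzR, and their part in the rise was not tested.

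In RPMI the same gene was at 0.02 and 0.07 FPKM in the parental libraries and at 41.28 and 60.95 FPKM in the resistant ones. The difference was 5.61 (SE 0.22). That SE pools the spread over the 10 groups and makes no allowance for a value chosen by its size. The ALDH1A1 difference was the third largest of all genes tested, and it is the value that chose the family. The gene just above it, IGFBP2, which binds insulin-like growth factors, differed by 5.68, from 0.05 and 0.11 FPKM to 47.71 and 62.29 FPKM. The gene just below it, KCTD12, an auxiliary subunit of GABA-B receptors, differed by 5.23, from 0.47 and 0.45 FPKM to 59.72 and 48.35 FPKM. The RPMI difference depends on the pseudocount because the parental level is near 0, and reached 8.46 with a pseudocount of 0.1 FPKM and 10.00 with 0.01.

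ALDH1A1 was low in AMO1 and L363, parental or resistant. It was listed at 0 in all 4 libraries of AMO1 WT and BtzR, and the libraries labelled AMO1 CfzR had 0.02 and 0 FPKM. L363 WT had 0.17 and 0.14 FPKM and L363 CfzR 0.17 and 0.10 FPKM. L363 BtzR was uneven, at 0.17 and 1.02 FPKM, so that only its second replicate stood apart. The L363 BtzR difference of 0.41 had an adjusted p of 0.284, and without replicate 1 of L363 BtzR it was 0.81 with an adjusted p of 0.0308. By mean level the order was ARH77 BtzR, RPMI BtzR, ARH77 WT and then the remaining groups, with no overlap of libraries between the first 3 groups or between them and the rest.

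The other genes of retinoid metabolism and response, a list of 19 with 15 tested, gave 1 rise and 1 fall in ARH77. In that comparison 5.98% of all genes were higher and 7.6% lower, so these counts are near the background. STRA6, the membrane receptor that takes retinol into cells, went from 1.08 and 1.29 FPKM in ARH77 WT to 2.92 and 3.25 FPKM in BtzR, a rise of 0.90 (adjusted p = 7.3e-07). RDH10, which oxidizes retinol to the retinaldehyde that ALDH1A1 uses, went from 5.34 and 5.24 FPKM to 2.93 and 3.38 FPKM and fell by 0.60 (adjusted p = 0.00148). In RPMI the gene of the list at least 2-fold apart was DHRS3, which reduces retinaldehyde back to retinol, at 0.72 and 0.98 FPKM in WT and 21.18 and 32.34 FPKM in BtzR (difference 3.88, not tested). DHRS3 stayed at or below 0.27 FPKM in ARH77. STRA6 was at 0 and 0.02 FPKM in RPMI WT and was listed at 0 in both RPMI BtzR libraries, where ALDH1A1 was high. Neither STRA6 nor DHRS3 was above 1.15 FPKM in any AMO1 or L363 library.

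ALDH1A2 and ALDH1A3, which make retinoic acid like ALDH1A1, were low. ALDH1A2 did not exceed 0.18 FPKM in any library, and ALDH1A3 reached 2.07 and 2.25 FPKM in RPMI WT and 1.24 and 0.80 FPKM in RPMI BtzR, and stayed at or below 0.69 FPKM elsewhere. ALDH1A3 rose in AMO1 BtzR by 0.26 (adjusted p = 0.0319), from 0.11 and 0.20 FPKM to 0.50 and 0.28 FPKM. In the same cells, where ALDH1A1 was listed at 0, 7 of the 15 tested genes of the retinoid list rose and 3 fell, beside 25.6% of all genes higher and 25.6% lower in that comparison. RXRA, the common partner of retinoic acid receptors, rose by 1.31 (adjusted p = 3.45e-06) and RARG, a retinoic acid receptor, fell by 1.25 (adjusted p = 7.85e-06). DHRS3, DHRS4, STRA6, RDH10, RARA and CYP26A1, which degrades retinoic acid, rose by 0.39 to 0.70, and RDH13 and RXRB fell by 0.40 and 0.44. Among the rises, STRA6, CYP26A1 and DHRS3 were low, at 0.03 to 0.25 FPKM in AMO1 WT and 0.49 to 1.15 FPKM in BtzR. These genes passed the filter of 1 FPKM only through other lines. In L363, CYP26A1 fell in BtzR by 0.35 (adjusted p = 0.0422), and RXRA rose in CfzR by 0.86 against WT (adjusted p = 0.000968).

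Genes on either side of ALDH1A1 in RefSeq order did not share its levels. TMC1 and ANXA1, the nearest on each side, were at 0.14 and 0.12 FPKM and at 0.04 and 0.04 FPKM in RPMI BtzR, and RORB, the next after ANXA1, was at 0.02 and 0.02 FPKM. ZFAND5, beyond TMC1, was at 18.34 and 18.08 FPKM in RPMI WT and 28.68 and 28.77 FPKM in BtzR, and was lowest in ARH77, at 10.46 to 13.23 FPKM against 15.4 FPKM or more in every other library. The tested genes with the pattern most like ALDH1A1, by Pearson r of mean log2(FPKM + 1) over the 10 groups, were FARP1 (0.996), FGD6 (0.978), RIMKLA (0.977), FAM218A (0.966) and MAP1B (0.964). FARP1, a guanine nucleotide exchange factor, was at 4.27 and 4.10 FPKM in RPMI BtzR and 4.49 in both ARH77 BtzR libraries. It was at 2.32 and 2.82 FPKM in ARH77 WT and at or below 0.17 FPKM in the other groups. Few groups carry these correlations, and the groups share lines, so they are descriptions.

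**Figure D2:**
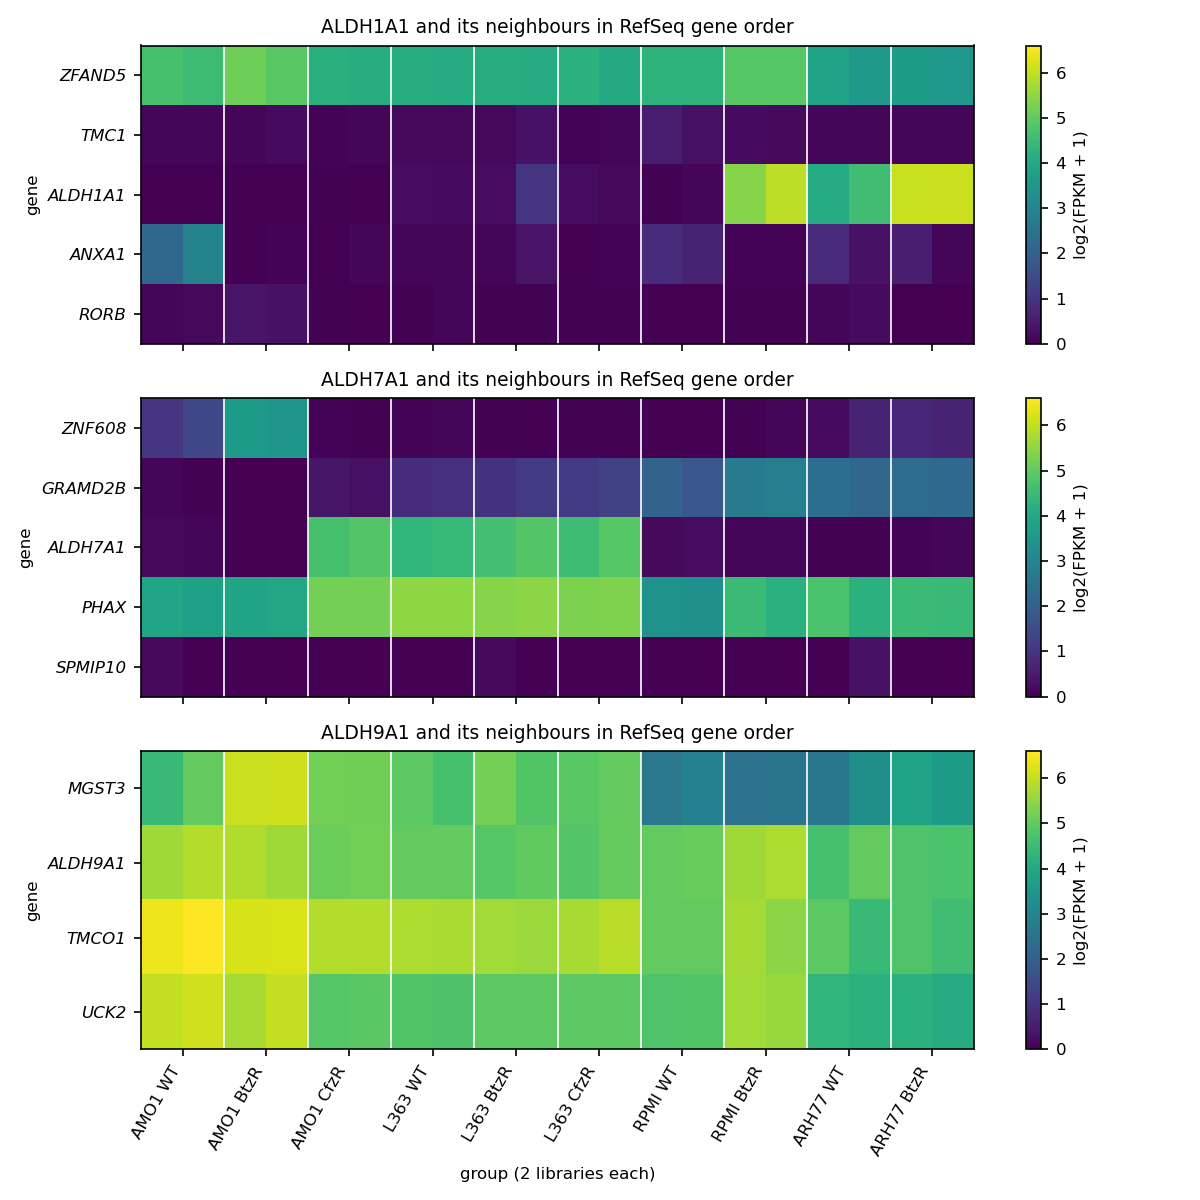
Level in log2(FPKM + 1), by colour, of ALDH1A1, ALDH7A1 and ALDH9A1 and the genes next to each in RefSeq order, in 20 libraries (columns, 2 for each group). TMC1, ANXA1 and RORB are dark where ALDH1A1 is bright. PHAX, beside ALDH7A1, is brightest in the columns where ALDH7A1 is bright, and TMCO1 and UCK2 are brighter in RPMI BtzR than in RPMI WT, as ALDH9A1 is.

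ALDH2, the mitochondrial acetaldehyde dehydrogenase, was low in every line, with a highest value of 2.65 FPKM and a median of 0.445 FPKM over the libraries. It rose in AMO1 BtzR, from 0.24 and 0.39 FPKM to 2.65 and 1.02 FPKM, a difference of 1.05 (SE 0.23, adjusted p = 0.00144). The resistant libraries lay above the parental ones but were uneven, with replicate 1 well above replicate 2. Without replicate 1 of AMO1 BtzR the difference was 0.62 and still passed, while a fit of the 4 libraries compared gave an adjusted p of 0.0716. In ARH77, ALDH2 was at 1.69 and 2.42 FPKM in WT and 1.66 and 2.05 FPKM in BtzR, which overlap. Its levels in the 3 L363 groups, 0.06 to 0.45 FPKM, overlapped as well.

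ALDH1B1, the other mitochondrial enzyme for small aldehydes, was at 11.58 FPKM or more in every library. Its level set ARH77 apart, at 53.78 and 40.65 FPKM in WT and 56.74 and 57.23 FPKM in BtzR, from a range of 11.58 to 22.68 FPKM in the myeloma lines. Its difference between BtzR and WT did not pass in AMO1, L363 or ARH77. The nearest was ARH77, with a difference of 0.28 (SE 0.12, adjusted p = 0.14), which was 0.48 with an adjusted p of 0.00696 without replicate 1 of ARH77 WT.

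ALDH3A2, the fatty aldehyde dehydrogenase, fell in bortezomib-resistant AMO1 and ARH77. In AMO1 it was at 27.53 and 28.65 FPKM in WT and at 14.90 and 13.51 FPKM in BtzR, a fall of 0.94 (SE 0.07, adjusted p = 1.14e-07) to a ratio of 0.506. In ARH77 it was at 13.21 and 13.59 FPKM in WT and 9.84 and 9.94 FPKM in BtzR, a fall of 0.40 (SE 0.07, adjusted p = 0.00163). The groups did not overlap in either line. The ARH77 call was lost in a fit of the 4 ARH77 libraries alone (adjusted p = 0.246). RPMI went from 15.23 and 16.26 FPKM to 10.72 and 11.41 FPKM, a difference of -0.47 that was not tested. L363 was at 26.88 and 26.25 FPKM in WT, 23.81 and 24.55 FPKM in BtzR and 25.49 and 23.22 FPKM in CfzR. Both L363 differences, -0.13 and -0.12, did not pass (adjusted p = 0.319 and 0.441).

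ALDH3A1 and ALDH3B2, of the same subfamily, stayed at or below 0.26 FPKM in all libraries. ALDH3B1, which also takes fatty aldehydes, fell in AMO1 BtzR from 8.75 and 11.03 FPKM to 5.26 and 4.42 FPKM (difference -0.89, adjusted p = 2.99e-05). It was highest in RPMI, at 19.39 and 18.87 FPKM in WT and 20.06 and 16.06 FPKM in BtzR. PHYH, which starts the breakdown of branched fatty acids in peroxisomes, rose in AMO1 BtzR (adjusted p = 4.82e-06), from 5.30 and 6.69 FPKM to 19.83 and 17.52 FPKM.

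ALDH1L2 releases carbon dioxide from 10-formyltetrahydrofolate in mitochondria and makes NADPH there. It fell in AMO1 BtzR, from 27.70 and 38.06 FPKM to 12.80 and 8.82 FPKM, a difference of -1.52 (SE 0.33, adjusted p = 0.00149). The groups did not overlap, and leaving out 1 library at a time gave -1.77 to -1.28. In RPMI it was at 4.14 and 5.87 FPKM in WT and 0.24 and 0.32 FPKM in BtzR, a difference of -2.22 that was not tested and was the other member at least 2-fold apart in that line. L363 was at 30.12 and 34.35 FPKM in WT, 19.97 and 26.23 FPKM in BtzR and 21.05 and 31.31 FPKM in CfzR, with differences of -0.47 and -0.31 that did not pass (adjusted p = 0.456 and 0.756). In ARH77 the WT libraries disagreed, at 1.62 and 5.28 FPKM, around the BtzR values of 5.14 and 3.90 FPKM. The ARH77 difference of 0.44 had an adjusted p of 0.458, and became 1.07 (adjusted p = 0.0274) without replicate 2 of ARH77 WT.

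ALDH1L1, the cytosolic enzyme for the same reaction, moved the other way in AMO1. It was at 0.04 and 0 FPKM in AMO1 WT and 9.83 and 8.32 FPKM in AMO1 BtzR, a rise of 3.30 (SE 0.31, adjusted p = 6.88e-07). In RPMI it was at 3.48 and 5.03 FPKM in WT and listed at 0 in both BtzR libraries, where ALDH1L2 was also lowest. L363 libraries had at most 0.07 FPKM. ARH77 had 7.70 and 22.51 FPKM in WT and 10.31 and 15.17 FPKM in BtzR, and these overlap.

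Genes of folate metabolism, a list of 12 with 11 tested, changed in both directions in AMO1 BtzR. MTHFD1, the cytosolic enzyme that makes and uses 10-formyltetrahydrofolate, rose by 0.86 (adjusted p = 7.29e-05), and TYMS, thymidylate synthase, rose by 0.30 (adjusted p = 0.0442). SHMT1 and SHMT2, which feed folate with carbon from serine, fell by 0.91 and 0.48. In ARH77, MTHFD1 was the gene of the list that changed, from 78.89 and 64.58 FPKM to 147.1 and 135.62 FPKM (difference 0.97, adjusted p = 0.000124). In L363 CfzR 0 of the 11 passed against L363 WT (limma), with 1 at an unadjusted p under 0.05. Of a list of 12 genes of the stress factor ATF4 and its targets, such as ASNS and TRIB3, 0 changed in AMO1 BtzR (limma) and 0 had an unadjusted p under 0.05, beside 25.6% of all genes higher and 25.6% lower. Their median difference was -0.24. The SE ran from 0.13 in VLDLR to 0.855 in CHAC1, and SESN2 differed by -0.61 (SE 0.63). The count of 0 therefore does not show that these genes were unchanged. The part of ATF4 in the fall of ALDH1L2 was not tested.

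**Figure D3:**
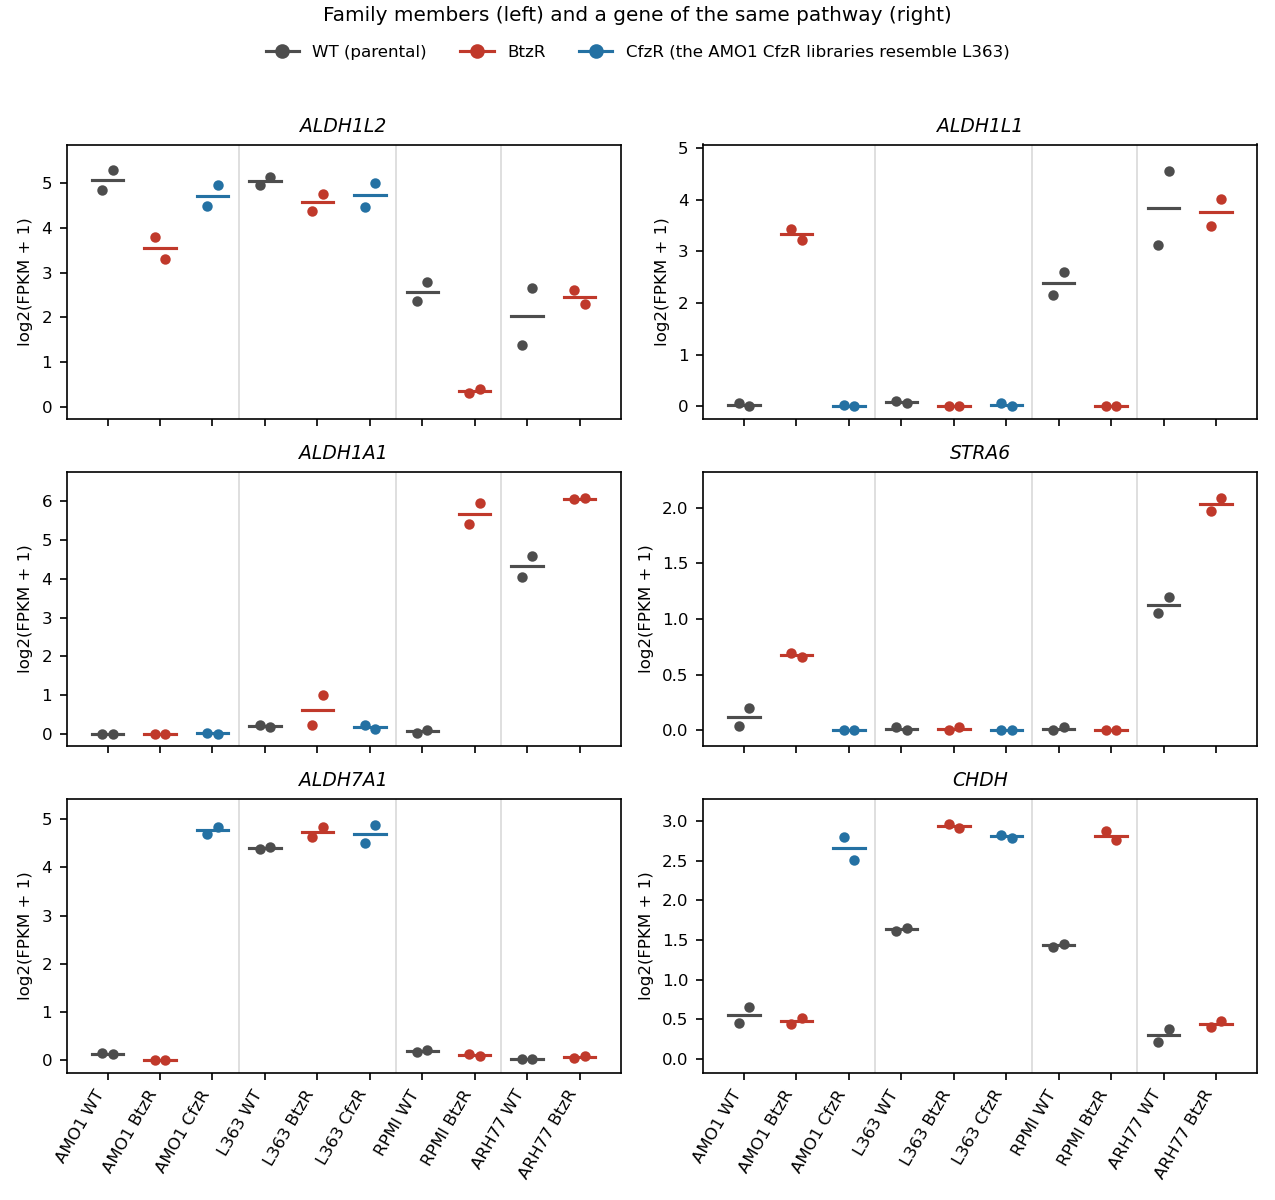
Level in log2(FPKM + 1) by group of ALDH1L2, ALDH1A1 and ALDH7A1 (left) and of a gene of the same pathway for each, ALDH1L1, STRA6 and CHDH (right). Points are libraries and bars are means of 2. ALDH1L1 is at 9.83 and 8.32 FPKM in AMO1 BtzR, where ALDH1L2 is at 12.80 and 8.82 FPKM, and both are lowest or at 0 in RPMI BtzR.

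ALDH18A1 makes pyrroline-5-carboxylate from glutamate for proline synthesis, and ALDH4A1 returns pyrroline-5-carboxylate to glutamate. ALDH18A1 was the most even member, from 41.19 to 65.17 FPKM, a ratio of 1.58 between the highest and the lowest library. It fell in AMO1 BtzR, from 53.72 and 57.39 FPKM to 41.19 and 44.26 FPKM (difference -0.37, SE 0.06, adjusted p = 0.00021). It also fell in ARH77 BtzR, from 64.84 and 65.17 FPKM to 53.57 and 54.60 FPKM (difference -0.26, SE 0.06, adjusted p = 0.0127). The groups did not overlap in either line. The ARH77 call was lost without replicate 1 of ARH77 BtzR (adjusted p = 0.0844), without its replicate 2 (0.0505) and in a fit of the 4 ARH77 libraries alone (0.238). In RPMI the resistant libraries were higher, at 60.99 and 59.21 FPKM against 49.49 and 46.70 FPKM, a difference of 0.32 that was not tested.

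ALDH4A1 stayed at a low level of 2.38 to 4.86 FPKM and passed in none of the comparisons of resistant with parental cells. AMO1 was the nearest, at 4.72 and 4.83 FPKM in WT and 3.69 and 3.55 FPKM in BtzR, with a difference of -0.32 (adjusted p = 0.0643). It passed in AMO1 with the same FPKM sum in each library, with quantile normalization and when the AMO1 WT and BtzR libraries were fitted alone, and in ARH77 without replicate 1 of ARH77 WT. Of the proline and glutamate list, 3 of 9 tested genes rose and 4 fell in AMO1 BtzR, where 25.6% of all genes rose and 25.6% fell. GOT1, a cytosolic transaminase, rose by 1.26, and PEPD, which frees proline from dipeptides, went from a listed 0 in both AMO1 WT libraries to 1.64 and 1.21 FPKM (adjusted p = 3.83e-06 and 1.64e-07). GLUD1, glutamate dehydrogenase, fell by 0.81, and PYCR1, which makes proline from the product of ALDH18A1, fell by 0.38. PYCR3, of the same kind as PYCR1, rose by 0.40, and OAT and GOT2, which are transaminases, fell by 0.38 and 0.42. In L363 BtzR PEPD fell by 0.35 (adjusted p = 0.0432), and OAT was higher in L363 CfzR than in BtzR by 0.38 (adjusted p = 0.0143). PYCR1 also fell in ARH77 BtzR, by 0.46 (adjusted p = 0.0349).

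ALDH7A1 oxidizes the semialdehyde formed in lysine breakdown and also betaine aldehyde. Its level set L363 apart. L363 had 19.76 and 20.49 FPKM in WT, 23.85 and 27.47 FPKM in BtzR and 21.84 and 28.40 FPKM in CfzR. AMO1 WT had 0.11 and 0.09 FPKM, AMO1 BtzR 0.01 in both libraries, and no RPMI or ARH77 library was above 0.16 FPKM. The AMO1 BtzR difference of -0.12 (adjusted p = 0.378) depends on the pseudocount, at -0.86 with 0.1 FPKM (adjusted p = 0.000487) and -2.45 with 0.01 FPKM (adjusted p = 2.12e-06). The libraries labelled AMO1 CfzR were at 24.76 and 27.72 FPKM, within the range of L363 and above every other AMO1 library. Against AMO1 WT their difference was 4.63 (SE 0.11, adjusted p = 4.4e-14), and against L363 WT it was 0.36 (adjusted p = 0.0611). ALDH7A1 passed the filter only through the L363 groups and these libraries, so these p-values are not independent of the filter. Within L363 both resistant groups lay above WT, with differences of 0.33 for bortezomib (adjusted p = 0.0654) and 0.30 for carfilzomib (adjusted p = 0.13), and neither passed. The bortezomib difference passed with either of the other scalings.

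PHAX, an RNA export adaptor and the next gene after ALDH7A1 in RefSeq order, was at 43.42 and 43.24 FPKM in L363 WT and the libraries labelled AMO1 CfzR had 36.02 and 36.09 FPKM. PHAX was at 14.09 and 12.65 FPKM in AMO1 WT, so it was present in every line, unlike ALDH7A1. GRAMD2B, on the other side, was at 0.82 and 0.88 FPKM in L363 WT and higher in RPMI WT, at 3.29 and 2.47 FPKM. The tested gene with the pattern most like ALDH7A1 was TGFB2, a growth factor of the TGF-beta family, with an r of 1.00 over the 10 groups. TGFB2 was at 9.82 to 14.66 FPKM in the L363 libraries and those labelled AMO1 CfzR, and at or below 0.12 FPKM elsewhere.

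Other genes of lysine, choline and carnitine metabolism changed in L363. AASS, the first enzyme of lysine breakdown, upstream of ALDH7A1, went from 2.14 and 1.88 FPKM in L363 WT to 8.25 and 7.69 FPKM in BtzR, a rise of 1.58 (adjusted p = 5.58e-06). In L363 CfzR it was at 2.84 and 2.82 FPKM, lower than in BtzR by 1.23 (adjusted p = 0.000102). CHDH, which makes betaine aldehyde from choline, rose in both, by 1.30 in BtzR (adjusted p = 5.68e-07) and by 1.17 in CfzR (adjusted p = 2.32e-06), comparisons that share the L363 WT libraries. CHDH was at 1.66 and 1.74 FPKM in RPMI WT and 6.30 and 5.77 FPKM in RPMI BtzR, a difference of 1.38 that was not tested. SARDH, which acts further down the breakdown of betaine, was lower there, at 13.9 FPKM in both WT libraries and 6.04 and 5.35 FPKM in BtzR (difference -1.16, not tested).

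ALDH9A1, which acts in carnitine synthesis, was at 24.84 FPKM or more in every library. In AMO1 it was at 49.30 and 56.01 FPKM in WT and 55.14 and 49.10 FPKM in BtzR (adjusted p = 0.95), and the bortezomib difference did not pass in L363 (adjusted p = 0.751) or ARH77 (adjusted p = 0.631) either. The 95% intervals of these differences lay between -0.33 and 0.22. In RPMI it was at 31.08 and 32.60 FPKM in WT and 49.21 and 54.06 FPKM in BtzR, a difference of 0.68 that was not tested. The genes after ALDH9A1 in RefSeq order stood higher there too, UCK2 at 50.88 and 46.89 FPKM against 26.49 and 27.03 FPKM, and TMCO1 at 51.02 and 42.65 FPKM against 31.21 and 31.28 FPKM. MGST3, on the other side, did not, at 4.50 and 4.83 FPKM in BtzR and 5.09 and 6.45 FPKM in WT. TMLHE, the first enzyme of carnitine synthesis, rose in AMO1 BtzR by 1.04 (adjusted p = 1.67e-05), and SARDH fell by 0.74 (adjusted p = 1.53e-06). SARDH was low in AMO1, at 0.90 and 0.85 FPKM in WT and 0.08 and 0.17 FPKM in BtzR, and passed the filter only through RPMI.

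ALDH16A1 was at 15.77 and 17.87 FPKM in AMO1 WT and at 10.50 and 10.18 FPKM in AMO1 BtzR. The groups did not overlap, and it fell by 0.65 (SE 0.11, adjusted p = 0.000199). In the other comparisons of resistant with parental cells its difference lay between -0.13 and 0.23 and did not pass, and in RPMI it was -0.07. By level, L363 and AMO1 WT were above RPMI and ARH77, whose 8 libraries lay between 6.18 and 10.87 FPKM.

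**Figure D4:**
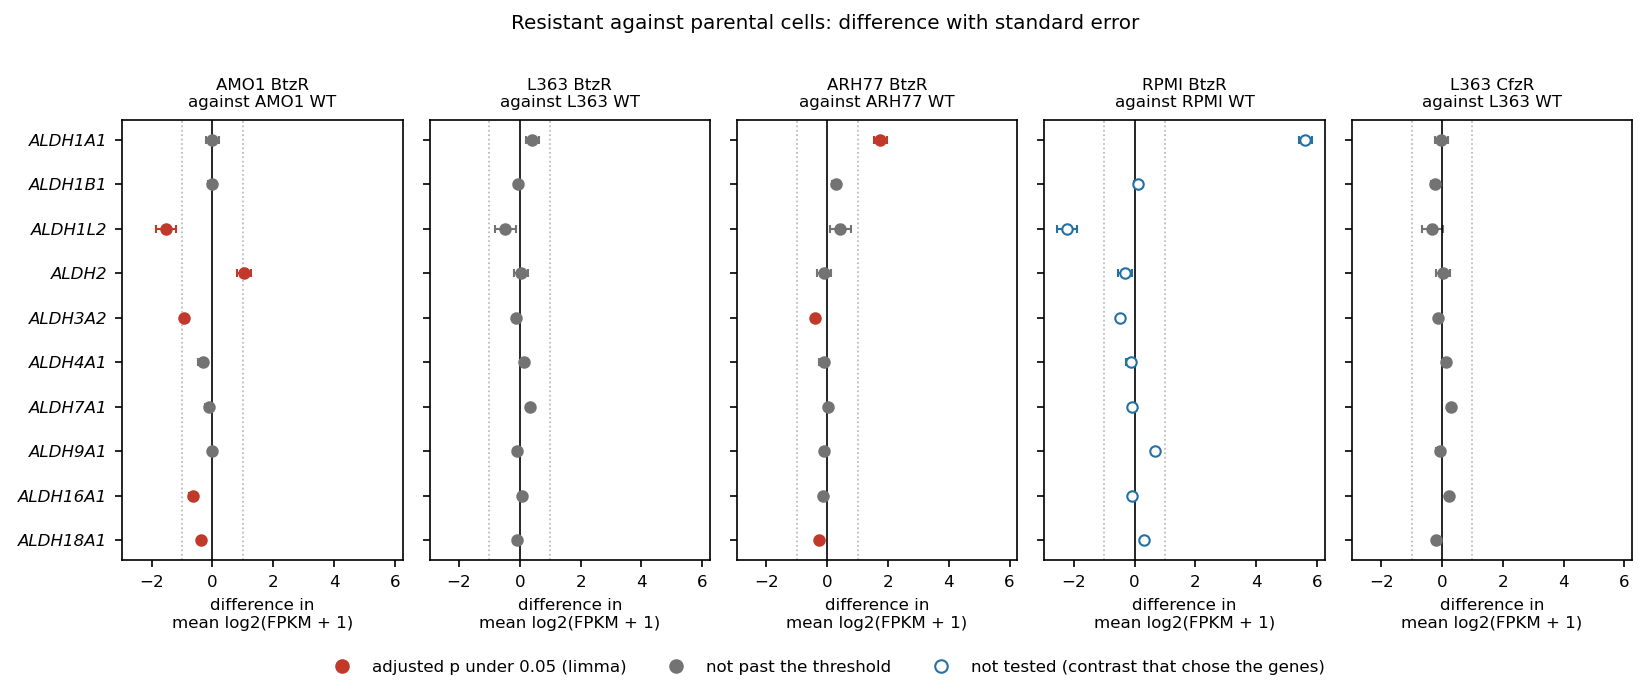
Difference in mean log2(FPKM + 1) between resistant and parental cells for the 10 members, with its standard error, in 5 comparisons. Filled red points have an adjusted p under 0.05 (limma), grey points do not, and open blue points belong to the RPMI comparison, which chose the family and was not tested. Dotted lines mark a difference of 1 in size. AMO1 BtzR has 5 red points, ARH77 BtzR has 3 and both L363 comparisons have none.

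Over the family, AMO1 BtzR had 5 of 10 members changed, with 1 higher and 4 lower, beside 25.6% of all tested genes higher and 25.6% lower. The members called at least 2-fold were ALDH1L2 and ALDH2, 2 of 10, beside 9.18% of all genes. The count of changed members is near the background of this comparison, in which about as large a share of all genes changed. The median difference of all 10 members was -0.22, against -0.0017 over all genes. CIITA, on the B cell list, was at 98.62 and 96.06 FPKM in AMO1 BtzR and 9.17 and 6.48 FPKM in AMO1 WT, while the other 7 genes of that list summed to 0.83 and 1.13 FPKM against 2.10 and 1.80 FPKM. The plasma cell list summed to 2280 and 2539 FPKM in AMO1 BtzR and 4175 and 3849 FPKM in AMO1 WT. Most of that sum was SDC1, at 1276 and 1356 FPKM in BtzR and 3266 and 2883 FPKM in WT. CD38, TNFRSF17 and IRF4 also had lower means in BtzR, while MZB1, SLAMF7, PRDM1 and XBP1 had higher ones. The part of CIITA or of the plasma cell list in the members' changes was not tested. Of the 6 other ALDH genes tested, 2 rose (ALDH1L1, ALDH1A3) and 2 fell (ALDH3B1 and ALDH6A1), the latter, an enzyme of valine breakdown, by 0.72 (adjusted p = 0.00528). Of 9 aldehyde and alcohol reductase genes tested, AKR1B1, aldose reductase, fell by 0.40 and CBR3, a carbonyl reductase, rose by 0.41.

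ARH77 BtzR had 3 of 10 changed, with 1 higher (ALDH1A1) beside 5.98% of all genes and 2 lower (ALDH3A2 and ALDH18A1) beside 7.6%. ALDH1A1 was the 1 member called at least 2-fold, beside 1.6% of all genes. Of the 6 other ALDH genes tested, 0 changed there (limma), and 0 had an unadjusted p under 0.05. Of the aldehyde reductase and alcohol dehydrogenase list, AKR1C1 and AKR1C3, which reduce aldehydes and ketones, fell by 1.19 and 1.35 (adjusted p = 2.3e-05 and 0.00223), from 1.47 and 2.36 FPKM and 1.84 and 5.14 FPKM in ARH77 WT to at most 0.65 FPKM in BtzR. The reads of these related genes may have been split between them. In RPMI, AKR1C3 stood the other way, at 0.91 and 0.64 FPKM in WT and 2.96 and 3.57 FPKM in BtzR (difference 1.27, not tested).

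In L363, 0 of 10 members changed with bortezomib resistance (limma), beside 5.66% of all genes higher, 5.52% lower and 2.06% called at least 2-fold. At an unadjusted p under 0.05 there was 1, ALDH7A1. With carfilzomib resistance 0 of 10 changed, beside 4.88% higher, 3.58% lower and 1.93% at least 2-fold, and 2, ALDH7A1 and ALDH18A1, had an unadjusted p under 0.05. ALDH18A1 was at 63.96 and 64.61 FPKM in L363 WT and 56.43 and 55.73 FPKM in CfzR, with a difference of -0.19 (adjusted p = 0.0826). Between L363 CfzR and L363 BtzR 0 of 10 differed, beside 3.27% higher, 2.87% lower and 1.47% at least 2-fold, and 0 had an unadjusted p under 0.05. RXRA was higher in CfzR than in BtzR by 1.02 (adjusted p = 0.000285). In the reductase list CBR1 fell in L363 BtzR by 0.56 and AKR1B1 in L363 CfzR by 0.43. The 95% intervals of the members' differences between the drugs lay between -0.91 and 0.87, the lower bound in ALDH1A1 and the upper in ALDH1L2.

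Against AMO1 WT, the libraries labelled AMO1 CfzR had 4 of 10 members changed. ALDH7A1 and ALDH18A1 were higher (2 of 10, beside 26.8% of all genes) and ALDH1B1 and ALDH9A1 lower (2 of 10, beside 30.9%), and ALDH7A1 was the 1 called at least 2-fold, beside 17.1%. The ALDH7A1 call is not independent of the filter, which this gene passed only through these libraries and the L363 groups. The ALDH18A1 difference of 0.17 (adjusted p = 0.0336) lost its call in 6 alternatives, among them both other scalings, with an adjusted p of up to 0.197. ALDH9A1 was at 33.94 and 35.52 FPKM, 0.58 below AMO1 WT (adjusted p = 0.000293), and ALDH1B1 at 15.09 and 14.26 FPKM, 0.43 below it (adjusted p = 0.00587). Both values lie near those of L363 WT, 31.39 and 31.37 FPKM for ALDH9A1 and 15.64 and 14.21 FPKM for ALDH1B1. Against L363 WT, 0 of 10 members changed (limma), beside 3.52% higher, 3.4% lower and 1.66% at least 2-fold, and 1, ALDH7A1, had an unadjusted p under 0.05. Of the pathway lists, CHDH and AASS stood above L363 WT by 1.02 and 0.81, and SHMT1 below it by 0.42. For these libraries, the effect of resistance and the difference between lines cannot be told apart.

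In RPMI BtzR, the comparison that chose the family, 1 of 10 members stood at least 2-fold higher (ALDH1A1), beside 5.92% of all genes, and 1 at least 2-fold lower (ALDH1L2), beside 7.95%. The other members differed from RPMI WT by -0.47 to 0.68.

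The parental lines were compared over AMO1, L363 and ARH77, since RPMI WT is a side of the comparison that chose the family. All 10 members differed between these 3 lines (limma F test), beside 83% of all genes. The adjusted p ran from 2.84e-14 for ALDH7A1 to 0.0128 for ALDH4A1. The groups that carried ALDH1A1, ALDH2 and ALDH7A1 past the filter include ARH77 WT or L363 WT. Their p-values in this test are therefore not independent of the filter. ARH77 WT was above AMO1 WT and L363 WT in ALDH1A1, ALDH1B1, ALDH2 and ALDH18A1, and below both in ALDH3A2, ALDH1L2, ALDH7A1 and ALDH16A1, with no overlap of libraries.

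A limma F test of the interaction asked if AMO1, L363 and ARH77 differ in their bortezomib effect, and 5 of 10 members passed, beside 49.5% of all genes. They were ALDH3A2 (adjusted p = 6.58e-05), ALDH1A1 (0.000801), ALDH16A1 (0.00404), ALDH1L2 (0.0101) and ALDH2 (0.0159). ALDH1A1 was listed at 0 in AMO1 and was low in L363, so its test cannot tell a differing effect from absence of the transcript. ALDH2 was low in L363 as well, so the same limit holds for its test there. ALDH1A1 and ALDH2 also passed the filter only through the groups where they are high. ALDH18A1 (0.0555) and ALDH7A1 (0.0583) did not pass. Across the 10 groups, ALDH3A2, ALDH4A1 and ALDH16A1 had the most similar patterns among the members, with Pearson r of 0.949 to 0.975. ALDH1A1 and ALDH1L2 had an r of -0.803. These correlations are over 10 group means that share lines and are descriptions. By the same measure, the gene most like ALDH1B1 was TMEM159 (r of 0.993), and those most like ALDH2 and ALDH1L2 were PCDHGB2 (0.993) and SH2B2 (0.985). TSC22D4 was most like ALDH3A2 (0.984), COPS3 most like ALDH16A1 (0.983), GHDC most like ALDH4A1 (0.981), GBE1 most like ALDH9A1 (0.975) and QDPR most like ALDH18A1 (0.921).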

How the data were processed

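RNA was measured in 20 libraries of cell lines, 2 for each of 10 groups. The authors deposited 1 table of FPKM values per gene, with no counts, so sequencing depth is unknown and no counting interval was computed. HISAT2 2.0.4, Bowtie2 2.2.5 and RSEM 1.2.12 are named in the submitters' processing notes. The genome build of these values is not given in the sources used here. Libraries were grouped by their labels, and 0 value columns had no sample.

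Values were analysed as log2(FPKM + 1) with limma 3.58.1 in R 4.3.3, in 1 fit of the 20 libraries that estimated every group's mean (10 groups, 10 residual degrees of freedom) and let the variance follow the mean. A gene was tested if its mean reached 1 FPKM in any group (13089 of 18305), and p-values were adjusted over all of them by the Benjamini-Hochberg method. On this scale a fold change understates the change of low genes. The study's methods call the replicates biological, and p-values measure the spread between these libraries. The test was checked on simulated data. No test for RNA-seq is stated in the study's methods.

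The members and the gene lists were chosen with earlier results of these data known. Every member is named, as is, apart from some that are not reported here, every gene of the other lists that changed in a comparison described. The exception is the comparison of the libraries labelled AMO1 CfzR with AMO1 WT, for which no list genes are named, as it carries the difference between lines. The genes most like each member by Pearson r over the 10 groups, and the genes next to ALDH1A1 by rank in RPMI, are named by rule. Neighbouring genes and list genes at least 2-fold apart in RPMI were named after their values were seen. Neighbours and promoter windows came from RefSeq tables (GRCh38.p14) read with Python 3.11.15. A planned comparison of protein sequences was not analysed here. Alternatives changed the pseudocount, filter, scaling, variance trend, libraries in the fit and replicate block, and left out each library in turn.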

Additional observations from a re-analysis of the deposited data

Results flagged for a closer look

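The effect of bortezomib resistance differed between AMO1, L363 and ARH77 for 5 members by limma's F test of the interaction. ALDH3A2 (adjusted p = 6.58e-05) differed by -0.94 in AMO1, -0.13 in L363 and -0.40 in ARH77. ALDH1A1 (adjusted p = 0.000801) differed by 1.75 in ARH77 and 0.41 in L363 and was listed at 0 in AMO1. As the transcript was absent in AMO1 and low in L363, this test cannot tell a differing effect from its absence. ALDH16A1 (adjusted p = 0.00404) differed by -0.65 in AMO1, 0.08 in L363 and -0.13 in ARH77. ALDH1L2 (adjusted p = 0.0101) differed by -1.52 in AMO1, -0.47 in L363 and 0.44 in ARH77. ALDH2 (adjusted p = 0.0159) differed by 1.05 in AMO1, 0.04 in L363 and -0.09 in ARH77. Its mean was 0.21 FPKM in L363 WT and 0.255 FPKM in L363 BtzR, so this test cannot tell a differing effect from a low level there. In AMO1 BtzR the libraries were uneven (1.84 ± 1.15 FPKM, SD), and limma on the compared libraries only gave an adjusted p of 0.0716. These 5 of 10 stand beside 49.5% of all genes tested.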

How the results depend on the processing

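Of 1084 member values under alternatives, 1038 kept their side of the threshold or, untested in RPMI, stayed within the spread of replicates. Among these 1038, the sign changed in 57 where the test was passed neither before nor after. Of the others, 13 lost the call, 23 gained it, 10 moved and 0 reversed. The cause of these shifts was not tested, except that a fit of fewer libraries has fewer degrees of freedom. With the compared libraries only, ARH77 BtzR had 0 changed members, and 0 of 13089 genes passed against 1778. The libraries labelled AMO1 CfzR had 1 changed member against L363 WT with a pseudocount of 0.01 FPKM, quantile normalization, no mean-variance trend, a replicate block or the compared libraries only. AMO1 BtzR had 6 changed members in 5 alternatives. L363 BtzR had 1 with the same FPKM sum, quantile normalization or a replicate block, and L363 CfzR had 1 against WT with no filter. Leaving out 1 library gave 0 to 1 for each L363 comparison, 2 to 5 for ARH77 BtzR and 4 to 8 for the difference between lines, where 5 and 8 came without ARH77 WT replicate 1 (3106 genes passing for ARH77).

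Over all genes, RPMI had 2777 and 3169 genes at least 2-fold apart with pseudocounts of 0.1 and 0.01 FPKM, against 1815. With the compared libraries only, 455 genes passed in L363 CfzR against WT (1108 otherwise) and 212 against BtzR (803 otherwise). Leaving out 1 library gave as few as 783 genes for L363 BtzR (1464 otherwise), 663 for L363 CfzR, 471 for L363 CfzR against BtzR, 522 for the libraries labelled AMO1 CfzR against L363 WT (906 otherwise) and 1020 for ARH77. Same-numbered replicates deviated together with an r of -0.006 in AMO1 BtzR and 0.12 to 0.245 in the other comparisons. The labels name no shared handling, and with 2 libraries a group the numbers were not taken as pairs. With the replicate block, ALDH7A1 passed in L363 BtzR (adjusted p = 0.0437), and 5 members changed in AMO1 BtzR, 3 in ARH77 BtzR and 7 in the difference between lines. A filter of 5 FPKM left ALDH2 and ALDH4A1 untested. Values near 0 FPKM depend on the pseudocount, and depth is unknown.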
